A study of Arabidopsis thaliana with 30 samples.

Results

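Long genes were examined to find where chromatin remodelling subunits and histone acetylation sit once the start of a gene has been left behind. Of 27444 nuclear protein-coding genes in the Arabidopsis thaliana annotation, 881 (3.21%) spanned at least 6000 bp. They were chosen by their length alone. The median span was 7189 bp and the longest, of the DNA damage kinase gene ATM, was 27265 bp. The interior of a gene was defined as the stretch from 1500 bp after its start to 1000 bp before its end. The 881 interiors together held 4.87 Mb, with a median length of 4689 bp. The start zone ran from 500 bp before the start to the first base of the interior.

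The data were ChIP-seq peak lists of 14-day-old seedlings, with 20 immunoprecipitated samples in 10 groups of 2 replicates. The 6 groups of GFP-tagged proteins were BRM-GFP, the same protein in brd1/2/13, BRD13-GFP, BRD1-GFP, BRD2-GFP and the altered BRD2-dBromo-GFP. Peaks of acetylated histone H4 came from H4K5ac and H4K8ac, each in WT and in brd1/2/13. The 10 input samples were not used here. By their name, brd1/2/13 plants are mutated in BRD1, BRD2 and BRD13. The design text places BRM-GFP in brm-1, BRD1-GFP in brd1 and BRD2-GFP in brd2, whereas the sample labels name no background, and none is given for the BRD13 or dBromo plants. By its name, BRD2-dBromo has an altered bromodomain. GFP is entered as the antibody of the acetylation samples, but their titles give the marks, and the titles were used. How the replicates were grown is not stated, so part of the spread among these samples may be technical. A p-value over groups rests on group means and covers the spread among these proteins, marks and genotypes, not that among replicates. The lists held 6129 to 20742 nuclear peaks, fewest in both lists of BRM-GFP in brd1/2/13. These lists went no further than q = 0.01, whereas the largest q of every other list lay between 0.036 and 0.0499. The background coverage at the peaks had a median of 10.01 and 18.59 reads in the BRM-GFP lists and of 24.1 to 38.1 reads in the others, so fold enrichments were compared in size only within a list.

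BRM is the ATPase of a plant SWI/SNF complex, which uses ATP to move or evict nucleosomes. BRD1, BRD2 and BRD13 are subunits of that complex, and their bromodomain is a fold that binds acetylated lysine. H4K5ac and H4K8ac are acetylated lysines of the histone H4 tail and are commonly found just downstream of the starts of transcribed genes. In a long gene the interior is mostly transcribed sequence, but it can also hold the start of a shorter transcript of the same gene, or of another gene on either strand.

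Interior sites of different kinds are shown first as DNA: long introns, an annotated start inside the gene, and coding exons. Each sequence is the mean summit of both replicates with 50 bp on each side, printed 5′ to 3′ on the strand of the long gene, from the RefSeq genome TAIR10.1. Capitals mark GAGAGA or its reverse complement TCTCTC. Here and below, an intron is sequence outside all exons of the long gene itself, and exons of other genes were not considered. AT3G52700, an uncharacterized gene, is shown at its BRM-GFP summit at chr3:19535307-19535407 (minus strand), in an intron of 5134 bp. This window has 58.4% GC, against 33.2% in interior windows wholly in introns, and whether it lies in an exon of another gene was not tested. TGA4, a bZIP transcription factor gene, is shown at its BRD13-GFP summit at chr5:3140602-3140702 (minus strand), in an intron of 3702 bp and just upstream of shorter transcripts of the gene. AT5G12440, which encodes a CCCH zinc finger protein, is shown at its BRD13-GFP summit at chr5:4039398-4039498 (minus strand), in an intron of 2284 bp. RBOH F encodes an NADPH oxidase that makes reactive oxygen, and is shown at its BRD13-GFP summit at chr1:23773276-23773376 (plus strand), in an intron of 909 bp. KNAT2, a KNOX homeobox gene, is shown at its BRD13-GFP summit at chr1:26580528-26580628 (plus strand), in an intron of 4162 bp, and was picked after its values were seen. TIC, a regulator of the circadian clock, is shown at its BRD2-GFP summit at chr3:7915172-7915272 (plus strand), in an exon. AT1G44120, which encodes a cellulose synthase interactive protein, and AT3G15920, which encodes a PX domain protein, are shown at their WT H4K5ac summits in coding exons, at chr1:16786549-16786649 (plus strand) and chr3:5386787-5386887 (minus strand).
AT3G52700: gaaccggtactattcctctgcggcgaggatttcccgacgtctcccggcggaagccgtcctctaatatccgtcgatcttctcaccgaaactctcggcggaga
TGA4: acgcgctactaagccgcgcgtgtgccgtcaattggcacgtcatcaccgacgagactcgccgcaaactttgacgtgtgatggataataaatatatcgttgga
AT5G12440: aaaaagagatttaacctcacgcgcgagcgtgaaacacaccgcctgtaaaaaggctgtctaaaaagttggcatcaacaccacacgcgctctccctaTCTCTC
RBOH F: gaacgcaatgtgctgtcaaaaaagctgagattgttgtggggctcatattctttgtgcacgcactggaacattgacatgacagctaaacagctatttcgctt
KNAT2: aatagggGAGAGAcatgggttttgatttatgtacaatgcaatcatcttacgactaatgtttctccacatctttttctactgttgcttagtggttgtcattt
TIC: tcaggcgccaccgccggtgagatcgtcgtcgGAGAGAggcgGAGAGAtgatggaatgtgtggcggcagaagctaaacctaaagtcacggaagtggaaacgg
AT1G44120: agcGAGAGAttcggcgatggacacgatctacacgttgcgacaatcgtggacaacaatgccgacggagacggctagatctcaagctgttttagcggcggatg
AT3G15920: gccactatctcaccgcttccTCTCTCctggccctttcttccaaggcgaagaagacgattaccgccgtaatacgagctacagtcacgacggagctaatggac

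The interiors held few summits in any list. BRM-GFP had 40 and 42 interior summits in its replicates, against 488 and 563 in the start zones of the same genes. BRM-GFP in brd1/2/13 had 12 and 13 interior summits, against 147 and 171 at the starts. BRD1-GFP had 46 and 43 interior summits and BRD2-GFP 46 and 45. BRD2-dBromo-GFP had 45 and 42, and BRD13-GFP 42 and 46. All BRD lists therefore lay within a narrow range. H4K5ac had 78 and 72 interior summits in WT and 76 and 83 in brd1/2/13. H4K8ac had 73 and 72 in WT and 76 and 77 in brd1/2/13. Each acetylation list had more interior summits than any list of a GFP-tagged protein.

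The signal was concentrated just downstream of the gene start. The first 500 bp of the long genes held 41.9 and 48.3 BRM-GFP summits per 100 genes and 73.6 WT H4K5ac summits per 100 genes in each replicate. Group means of the summit density ran from 90.2 to 455 summits per Mb in start zones and from 2.57 to 16.3 per Mb in interiors. Peaks covered 0.18% to 1.5% of the interior bases and 5.29% to 36.1% of the start-zone bases in the group means. A summit lay in the interior of 1.31% to 7.78% of the long genes and in the start zone of 17.9% to 88.6%, again as group means.

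**Figure D1:**
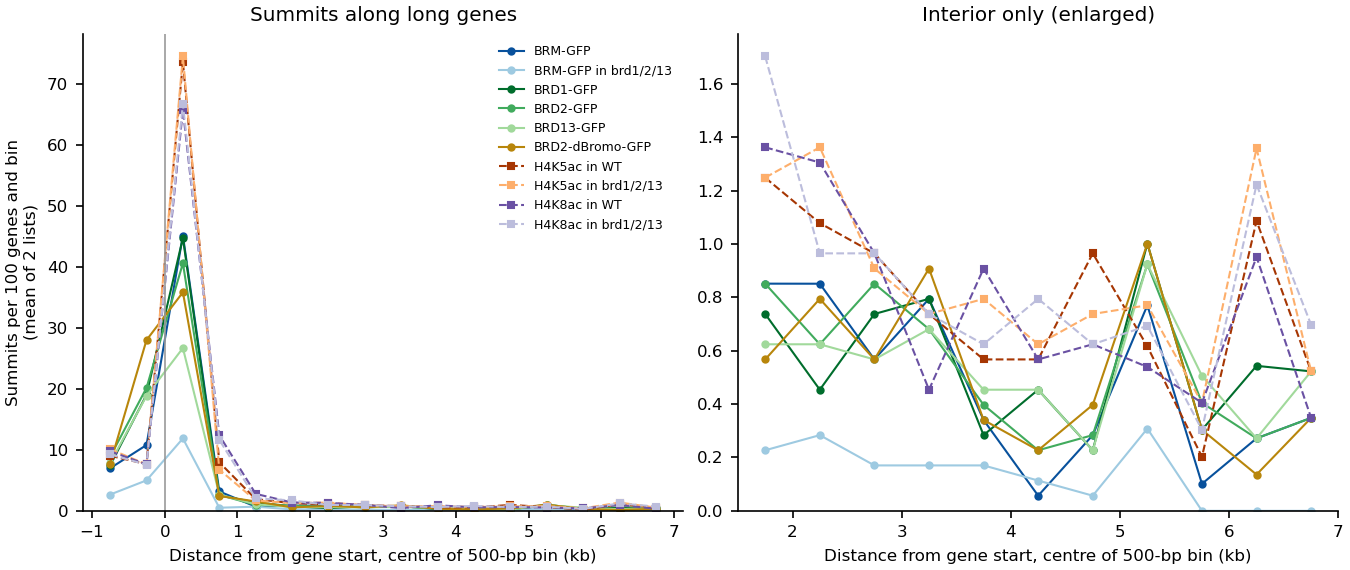
Summits per 100 long genes in 500 bp bins by distance from the gene start, with a line for each group drawn as the mean of its 2 lists (solid for GFP-tagged proteins, dashed for acetylation) and the interior enlarged on the right. In every group the bins next to the start hold most summits, and BRM-GFP replicate 1 has 41.9 summits per 100 genes in the first 500 bp.

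The interiors of long genes were then compared with those of 6133 genes of at least 3000 but under 6000 bp, cut by the same limits. BRM-GFP had 8.22 and 8.63 summits per Mb in long interiors and 17.8 and 20.4 per Mb in mid-length interiors. WT H4K5ac had 16.0 and 14.8 per Mb in long and 28.1 and 26.9 per Mb in mid-length interiors. WT H4K8ac had 15 and 14.8 per Mb in long and 42.9 and 45.4 per Mb in mid-length interiors. Long interiors thus held fewer summits per base in each of these lists. Over the 10 groups the difference was -16.7 summits per Mb ± 7.23 (SD), and it was negative in 10 of 10 groups, from -29.2 to -5.3 (exact sign-flip permutation test, two-sided, p = 0.00195, the smallest the test can give, adjusted p = 0.00586 over 6 tests). In the first 500 bp of both kinds of interior, at equal distance from the start, the difference was -15.7 per Mb. With each list cut to the same number of strongest peaks it was -3.71 per Mb.

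**Figure D2:**
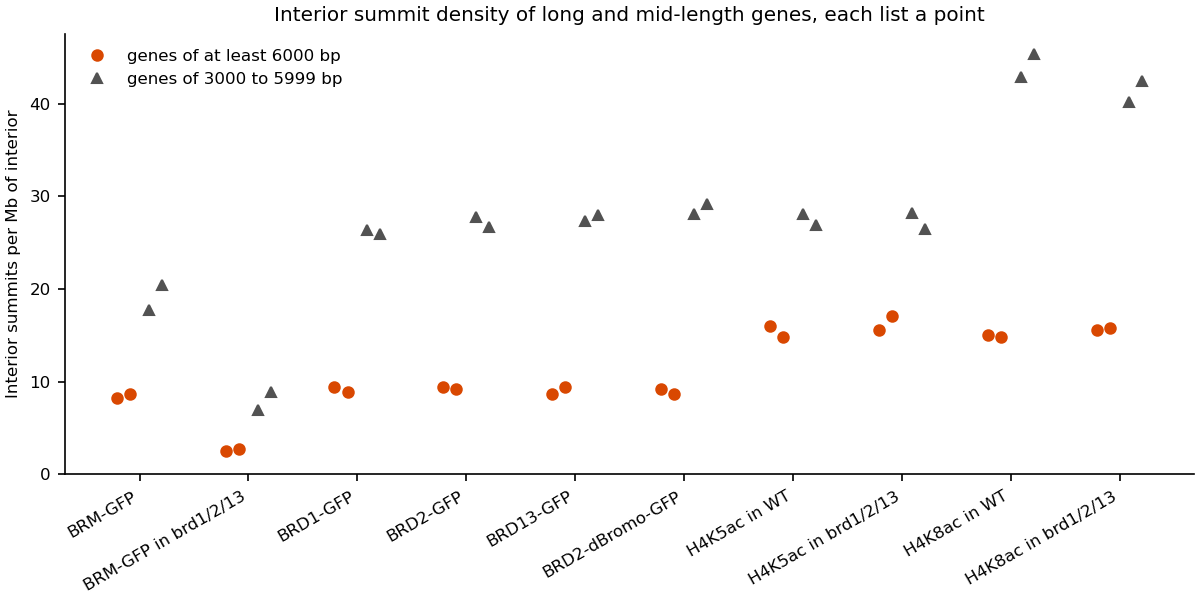
Interior summits per Mb in genes of at least 6000 bp and in genes of at least 3000 but under 6000 bp, with points for the lists of the 10 groups. Every group has a lower density in the long genes, by 5.3 to 29.2 summits per Mb.

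Of the summits that fell in the start, interior or end zone of a long gene, 5.63% ± 0.668 (SD over 6 groups) lay in the interior for the GFP-tagged proteins and 7.14% ± 0.22 (SD over 4 groups) for the acetylation marks. The lists of BRD2-dBromo-GFP had the lowest shares, 5.01% and 4.67%, and BRD13-GFP had the highest among the GFP groups, 6.51% and 7.15%. H4K5ac in brd1/2/13 had 6.93% and 7.51%. The acetylation share was higher by 1.51 percentage points (exact permutation test over 10 groups, two-sided, p = 0.00952, adjusted p = 0.019). This direction did not hold when weak peaks were set aside. The difference was -4.2 points with equal numbers of strongest peaks in each list (same exact test, adjusted p = 0.00952) and -0.198 points at a −log10 q of at least 5 (same exact test, adjusted p = 0.719). Without BRD13-GFP replicate 1 it was 1.46 points and did not pass (same exact test, adjusted p = 0.0571).

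Interior summits of GFP-tagged proteins were found in introns about as often as interior bases, and those of the acetylation marks mostly in exons. Introns made up 45.3% of the interior bases. Only exons of the long gene itself were counted, so a summit in an exon of another gene inside such an intron counted as intronic. The share of interior summits in introns was 47.5% and 42.9% in the BRM-GFP lists, 52.4% and 56.5% in those of BRD13-GFP and 55.6% and 54.8% with the altered BRD2. It was 24.4% and 19.4% for WT H4K5ac and 16.4% and 23.6% for WT H4K8ac, and all 8 acetylation lists lay under the share of the bases. BRM-GFP in brd1/2/13, with few summits, had 41.7% and 7.69%. Over all 10 groups the difference from the bases was -9.35 points ± 15.8 (SD) and did not pass (exact sign-flip permutation test, two-sided, p = 0.0918, adjusted p = 0.11), with 4 groups higher and 6 lower. The mean difference was 1.05 points for the GFP groups and -24.9 points for the acetylation groups. Without BRM-GFP in brd1/2/13 the GFP mean was 5.39 points, with group means from -0.165 to 9.82.

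Many interior summits lay close to the annotated start of another gene. Positions within 500 bp of such a start made up 1.28% of the interior bases. BRM-GFP had 15% and 11.9% of its interior summits there, BRD1-GFP 21.7% and 18.6%, and WT H4K5ac 19.2% and 19.4%. The excess over the bases was 16.5 points ± 3.03 (SD) and was positive in 10 of 10 groups, from 10.6 to 20.5 (exact sign-flip permutation test, two-sided, p = 0.00195, adjusted p = 0.00586). Among the 810 long genes with no start or end of another gene in the interior it was 0.983 points, as that choice removes nearly all such positions (same exact test, adjusted p = 0.0938). When the starts of further transcripts of the same gene were counted as well, 41% of the interior summits of the GFP groups (31.4% to 49.4%) and 40.4% of those of the acetylation groups were near an annotated start, against 2.79% of the bases. Of the 881 long genes, 68 had a transcript start of their own in the interior and 51 held the start of another gene.

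The height of interior peaks was compared with that of start peaks in each list. The median fold enrichment over background of BRM-GFP was 3.41 and 3.29 in the interior and 3.45 and 3.01 in the start zone. That of BRD2-GFP was 3.08 and 3.13 in the interior and 2.74 and 2.78 in the start zone. That of WT H4K5ac was 2.91 and 3.09 in the interior and 4.87 and 4.93 in the start zone, so its interior peaks were lower in both replicates. WT H4K8ac had 2.19 and 2.20 in the interior and 3.22 and 3.15 in the start zone. The log2 difference of the medians, interior minus start, averaged 0.09 over the GFP groups and -0.69 over the acetylation groups. With equal numbers of strongest peaks these means were 0.17 and 0.05, and their difference, acetylation minus GFP, was -0.12 (exact permutation test, two-sided, p = 0.162). Over all 10 groups it was -0.22 ± 0.41 (SD), with 5 groups higher and 5 lower (exact sign-flip permutation test, two-sided, p = 0.125, adjusted p = 0.125). With those strongest peaks it turned to 0.12 and passed (same exact test, adjusted p = 0.0322).

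**Figure D3:**
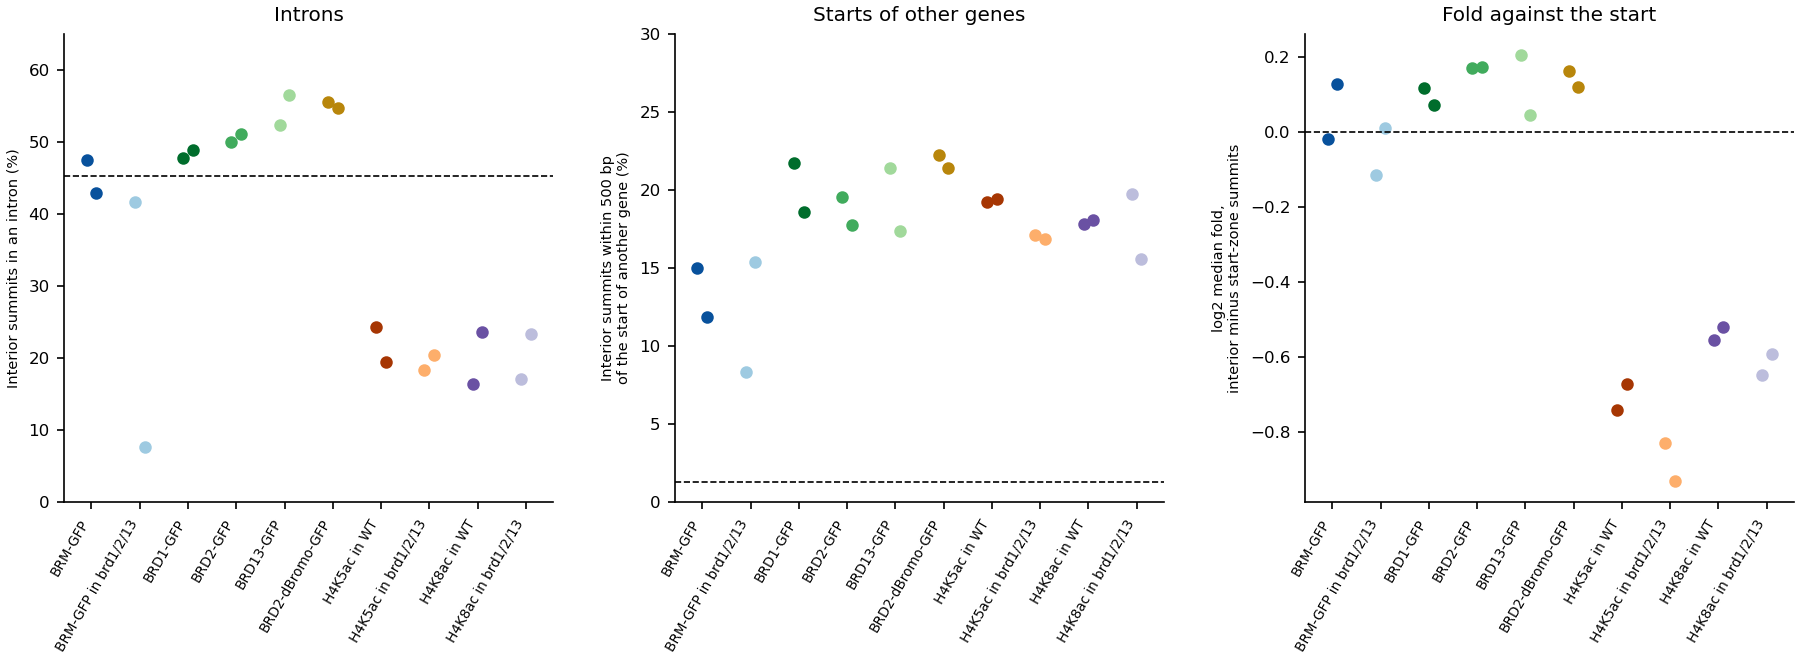
Each point is a list: the percentage of its interior summits in introns (left), the percentage within 500 bp of the start of another gene (middle), and the log2 median fold of interior minus start-zone summits (right), with dashed lines at the share of the interior bases or at 0. All 8 acetylation lists lie under the intron share of the bases (45.3%) and under 0 on the right.

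A site was next called an interior region of a group when the peaks of both replicates overlapped and both had a summit in the interior of the same gene. Of the 881 genes, 84 (9.53%) had such a region in at least 1 group: 13 in GFP groups only, 39 in acetylation groups only and 32 in both. BRM-GFP had 32 interior regions in 29 genes, BRM-GFP in brd1/2/13 had 8 in 8, BRD2-dBromo-GFP had 38 in 34, BRD13-GFP 39 in 34, and BRD1-GFP and BRD2-GFP 41 in 35 each. WT H4K5ac had 63 in 61 genes and WT H4K8ac 57 in 52. Not all of these genes had a peak at the start as well: of the 29 BRM-GFP genes, 12 (41.4%) had a start-zone region in both replicates and 10 had no start-zone peak in either. Of all 881 long genes, 50.5% had a BRM-GFP start-zone region, so the share of 41.4% in this small set was not far from that of any long gene. The 5 longest genes (ATM, AT1G48090, AT1G67120, AT4G17140 and AT5G24740) had no interior region in any group.

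Interior regions in all 10 groups were found in 7 genes: AT1G66880, MAPKKK7, AT3G52700, ADR1-L1, AT4G35240, TGA4 and AT5G61910. In each of the 7 an annotated start lay within 500 bp of at least 1 of the interior summits. This was common where both kinds of group met: of 31 such interior places, defined below, 25 (80.6%) were near an annotated start. Genes with regions in all groups also had more summits that could fall near a start. AT3G52700 had the highest BRM-GFP fold of any interior peak, 10.5 and 10.9 at 3046 bp from the gene start, and had 3.03 and 3.51 in brd1/2/13. In the same gene BRD13-GFP reached 12.7 and 12.1, with its summit at 2191 bp. WT H4K5ac had 4.28 and 4.12, with its summit 3473 bp from the gene start. The H4K5ac and H4K8ac summits of this gene lay within 500 bp of the start of AT3G52710. The BRM-GFP peak at its own start was lower, with 3.36 and 3.42.

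ADR1-L1, a helper gene of immune receptors, had BRM-GFP folds of 8.18 and 7.96 at 2516 bp, and 3.06 and 2.68 in brd1/2/13. BRD13-GFP had 13.7 and 13.3 at the same site, the highest of any interior BRD13-GFP region. The summits of the BRD groups lay within 500 bp of a long non-coding RNA start, AT4G08785. WT H4K5ac had 3.36 and 3.47, at 2674 bp. At the gene start BRM-GFP had 7.36 and 8.07, so the gene had BRM-GFP peaks at both sites.

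TGA4, which acts in defence signalling, had BRM-GFP folds of 6.27 and 5.31 in its long intron, 3609 bp from the start. In brd1/2/13 they were 1.99 and 1.90, with the summit at 4115 bp. BRD13-GFP had 6.69 and 7.50 at 3617 bp, in the sequence shown above. Shorter transcripts of TGA4 begin downstream of that window, and the WT H4K5ac summit lay further downstream again, at 4171 bp with folds of 4.33 and 4.83. At the annotated start of the full gene replicate 2 of BRM-GFP had a peak of 2.09 and replicate 1 had none, while WT H4K5ac had 5.76 and 6.33.

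In MAPKKK7, which encodes a mitogen-activated protein kinase kinase kinase, BRM-GFP had 5.09 and 5.62 at 3580 bp, and BRD1-GFP had 9.34 and 8.36 at 3504 bp. The site is close to the start of MYB5, a MYB transcription factor gene. No list had a start-zone peak for MAPKKK7 itself. In AT5G61910, a DCD domain gene, BRM-GFP had 6.27 and 6.59 at 4950 bp, near the start of BON1, a gene for a membrane-binding copine. In AT4G35240 BRM-GFP had 5.82 and 7.35 at 2890 bp, and the BRD summits lay near a shorter transcript of the gene. AT1G66880, a protein kinase gene, had more than 1 region: BRM-GFP had 2.82 and 3.11 at 1776 bp and 8.72 and 8.12 at 5425 bp, both in introns.

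**Figure D4:**
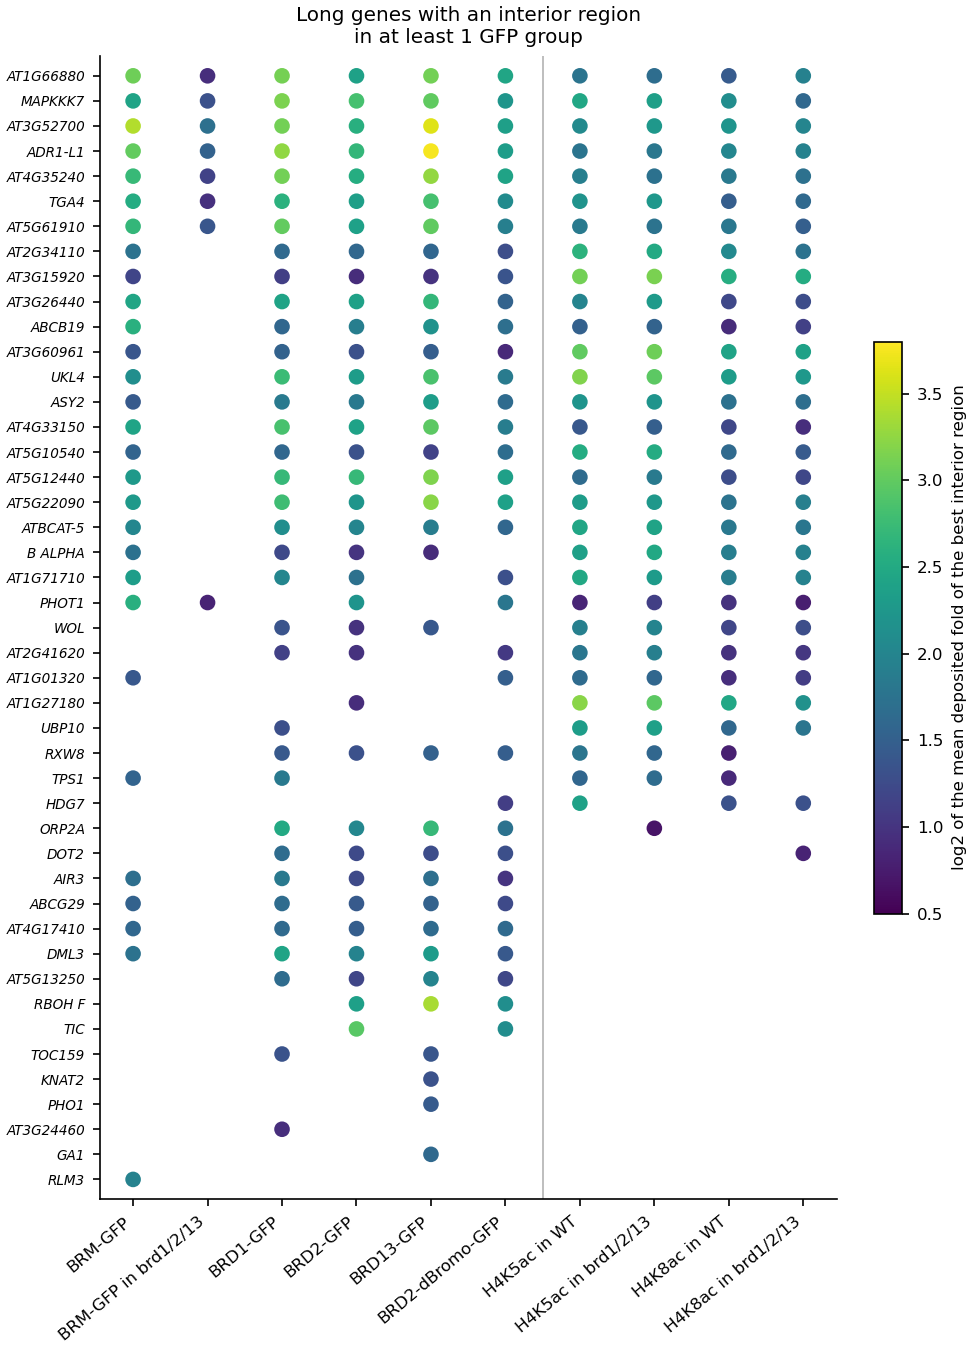
Long genes with an interior region in at least 1 GFP group (45 genes, vertical axis) in the 10 groups (horizontal axis), coloured by the log2 of the mean fold of the strongest interior region, with no dot where there was none. The 7 genes with a region in every group are at the top, and 13 genes have no acetylation region.

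Joining summits less than 1000 bp apart over all groups gave 95 interior places. Of these, 19 held only GFP-tagged proteins, 45 only acetylation and 31 both. Of the places with both, 25 (80.6%) were within 500 bp of an annotated start, of the same gene or another, as were 12 (26.7%) of the acetylation-only places and 2 (10.5%) of the GFP-only places. In an intron were 11 (57.9%) of the GFP-only places, 10 (32.3%) of those with both and 7 (15.6%) of the acetylation-only places. These classes were made from the peaks themselves, so the shares are a description. Of the 13390 introns of the interiors, 81 (0.605%) reached 1000 bp. The median length of the introns that held a place was 1760 bp for GFP-only places, 3782 bp for those with both and 1503 bp for acetylation-only places, read at the GFP summits where there were any. These medians rest on the 11, 10 and 7 intronic places. The 0.605% counts introns by number, and a longer intron has more bases in which a summit can fall. The share of intron bases in such introns was not computed, so a preference for long introns was not tested.

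Among the GFP-only places, the RBOH F intron had BRD13-GFP folds of 10.3 and 10.3, BRD2-GFP folds of 5.09 and 5.20 and BRD2-dBromo-GFP folds of 4.90 and 3.77. BRM-GFP and BRD1-GFP had no interior region in RBOH F, but BRM-GFP had a start-zone peak of 6.45 and 7.10. AT5G22090, a FAF-like gene, carried a peak of all GFP groups other than BRM-GFP in brd1/2/13 in an intron of 4798 bp: BRM-GFP had 4.36 and 4.49 at 3167 bp and BRD13-GFP 8.27 and 10.2 at 3169 bp. The H4K5ac region of the same gene was elsewhere, at 6085 bp. A second and higher BRM-GFP region of the gene, with 4.54 and 5.105 at 5458 bp, was joined with it into a place near an annotated start. DML3, which encodes a DNA demethylase, had BRM-GFP folds of 3.18 and 3.52 at 1586 bp, near the interior limit, and no start-zone peak in any GFP list.

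ABCB19, an auxin efflux transporter gene, had BRM-GFP regions of 7.09 and 5.003 at 2530 bp and of 2.45 and 2.50 at 5296 bp. The second lay in an intron of 1093 bp, where BRD13-GFP had 3.97 and 4.99 and no acetylation region was found. AIR3, a subtilisin-like protease gene named after its values were seen, had BRM-GFP folds of 3.27 and 3.17 in an intron of 1430 bp. In KNAT2, the only interior region of any group was BRD13-GFP, with 2.46 and 2.55. TIC had BRD2-GFP folds of 7.20 and 8.22 at 2317 bp, within a region 7225 bp wide that ran on from upstream of the gene start. There BRM-GFP had its summit in the start zone, with 12.3 and 13.5. As a peak has only 1 summit, wide peaks such as that of TIC place all their signal at 1 point.

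Acetylation-only sites were mostly exonic. The strongest was in AT1G44120, where WT H4K5ac had 8.73 and 10.07 at 6540 bp and WT H4K8ac 5.32 and 5.29, next to the start of the long non-coding RNA gene AT1G44125. PHOT2, a blue light receptor gene, had WT H4K5ac folds of 5.83 and 5.29 at 6600 bp, with no annotated start nearby. High H4K5ac folds were also found at places that held both kinds of group. Among these, AT3G60961 had WT H4K5ac folds of 7.71 and 8.23 at 6189 bp in an intron of 10234 bp, where BRM-GFP had 2.45 and 2.76. At AT3G15920, close to a small nucleolar RNA start, WT H4K5ac had 8.85 and 8.25 and BRM-GFP 2.09 and 2.45.

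Genes annotated as disease resistance genes made up 19 (2.16%) of the long genes, and 8 of them had an interior region, against 84 (9.53%) of all long genes. Of these 8, 6 had acetylation only, 1 had GFP-tagged proteins only (RLM3) and 1 had both (AT1G27180), beside 39, 13 and 32 of the 84. This class was not among the planned lists and follows the wording of the annotation. It leaves out ADR1-L1, which had regions in all 10 groups, so these counts are a description. AT1G27180 had WT H4K5ac folds of 9.17 and 9.35 at 1741 bp, near shorter transcripts of the gene, and BRD2-GFP folds of 1.76 and 2.03. AT4G16940, named after its values were seen, had WT H4K5ac folds of 4.80 and 5.14 in a coding exon at 2740 bp. Such genes occur in clusters of similar copies whose reads can be shared, so their values are uncertain.

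The overlap of interior peaks with H4K5ac was compared with that of start-zone peaks, using H4K5ac peaks found in both replicates. BRM-GFP in brd1/2/13 was set against H4K5ac of brd1/2/13. All other GFP groups were set against H4K5ac of WT, which is not the background that the design text names for BRM-GFP, BRD1-GFP and BRD2-GFP. In BRM-GFP, 65% and 71.4% of the interior peaks and 92.8% and 94.5% of the start-zone peaks overlapped H4K5ac. In BRD13-GFP the shares were 54.8% and 52.2% in the interior and 93.5% and 92.8% at the start. BRM-GFP in brd1/2/13 had 83.3% and 92.3% of its few interior peaks in overlap, against 85.0% and 88.3%. The difference over 6 groups was -26.4 points ± 14.4 (SD), lower in 5 of 6 groups, and did not pass (exact sign-flip permutation test, two-sided, p = 0.0625, adjusted p = 0.0938). Without BRM-GFP in brd1/2/13 it was -31.9 points, where 5 groups cannot give p under 0.0625. It passed with equal numbers of strongest peaks (-19.5 points, same exact test, adjusted p = 0.0375) and without BRM-GFP in brd1/2/13 replicate 2 (-26.9 points, same exact test, adjusted p = 0.0469) or H4K5ac in brd1/2/13 replicate 1 (-26.7 points, same adjusted p).

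Of all regions in the genome, 74.7% of BRM-GFP, 72.1% of BRD1-GFP, 71% of BRD2-GFP and 65.5% of BRD13-GFP overlapped WT H4K5ac, so the interior shares of 78.1%, 68.3%, 73.2% and 59% of regions were near these, and the start-zone shares stood above them. Within the interior, the overlap was more frequent near annotated starts in 5 of the 6 GFP groups. Of the BRM-GFP regions near a start, 11 of 12 overlapped WT H4K5ac, and 14 of the other 20 did. For BRD1-GFP these counts were 20 of 22 and 8 of 19, for BRD2-GFP 19 of 19 and 11 of 22, and for BRD13-GFP 15 of 15 and 8 of 24. In BRD2-dBromo-GFP 15 of 16 regions near a start overlapped H4K5ac, as did 8 of the other 22. All 8 interior regions of BRM-GFP in brd1/2/13 overlapped H4K5ac of that genotype, 2 near a start and 6 elsewhere. Where a GFP summit and a WT H4K5ac summit lay within 1000 bp of each other in the interior, the median H4K5ac summit was 197 bp downstream of that of BRM-GFP, in the direction of the gene, and 351 bp downstream of that of BRD13-GFP. In start zones the medians were 121 and 235 bp. Pairs of summits share lists and genes, so no test was made.

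The sharing of interior regions between BRM-GFP and the BRD proteins was set beside that of all their regions. All 32 BRM-GFP interior regions overlapped a region of each of the unaltered BRD proteins, and 31 (96.9%) one of BRD2-dBromo-GFP. For the whole set of 13638 BRM-GFP regions the overlap was 88.9% with BRD13-GFP, 91.5% with the altered BRD2, 95.4% with BRD2-GFP and 97.2% with BRD1-GFP. At the starts of long genes, 98.2% of 446 BRM-GFP regions overlapped BRD1-GFP, 95.1% BRD2-GFP, 81.4% BRD13-GFP and 90.6% the altered BRD2. In the other direction BRM-GFP was found at 30 of 41 (73.2%) interior BRD1-GFP regions, 34 of 41 (82.9%) of BRD2-GFP and 28 of 39 (71.8%) of BRD13-GFP, against 75.9%, 79% and 81.7% of all regions of these proteins.

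Whether BRM still occupied these interiors without the BRD proteins was asked with the lists of BRM-GFP in brd1/2/13. A summit lay in the interior of 3.75% and 4.09% of the long genes for BRM-GFP and of 1.14% and 1.48% for BRM-GFP in brd1/2/13, so the lists did not overlap. The difference was -2.61 points (exact permutation test, two-sided, p = 0.33, the smallest that 2 against 2 lists allow, adjusted p = 0.889 over 4 tests). Of the 32 BRM-GFP interior regions, 17 (53.1%, 95% Wilson interval 36.4% to 69.1%, counting error only) had no peak in either mutant list, 5 had a peak in 1 list and 10 had one in both. Over all 13638 BRM-GFP regions of the genome 52.7% had none, so the interior share was near the background. At the starts of long genes 260 of 446 (58.3%, interval 53.7% to 62.8%) had none. With each list cut to the same number of strongest peaks the shares without a peak were 37.5% in the interior and 19.9% in start zones. When the mutant peaks had to cover at least 50% of the region they were 87.5% and 80.5%.

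Regions without a peak in brd1/2/13 had a median BRM-GFP fold of 3.34 (2.27 to 6.05), those with a peak in 1 mutant list 4.04, and those with peaks in both 5.90 (2.97 to 10.7), so the ranges overlapped. Introns held 8 of the 17 and 4 of the 10. Among the strongest of the 17 were ABCB19 at 2530 bp, with 7.09 and 5.003, and AT4G33150, an enzyme gene of lysine breakdown, with 4.91 and 5.87. AT1G71710, with 5.45 and 4.54, and UKL4, a uridine kinase-like gene, with 4.09 and 4.59, were also among them. The 10 included AT3G52700, ADR1-L1, AT5G61910, AT4G35240, TGA4 and MAPKKK7, and PHOT1, a blue light receptor gene, where BRM-GFP had 5.54 and 6.48 at 2087 bp and 1.69 and 1.84 in the mutant. When all lists were held to a −log10 q of at least 5, the share of interior regions without a mutant peak was 55.2%. The part of peak height in these counts was not tested.

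**Figure D5:**
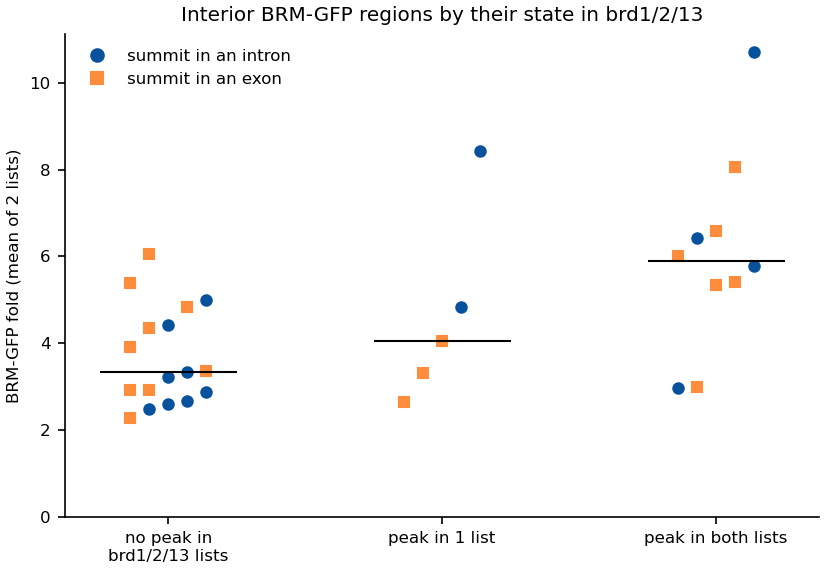
Mean BRM-GFP fold of each of the 32 interior regions, split by whether neither, 1 or both lists of BRM-GFP in brd1/2/13 had a peak there, with circles for introns, squares for exons and a line at the median. The medians are 3.34, 4.04 and 5.90, and the points of the outer classes overlap.

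Nearly all interior BRD2-GFP regions had a counterpart in BRD2-dBromo-GFP, as did those of each acetylation mark between WT and brd1/2/13. A BRD2-GFP summit lay in the interior of 4.43% and 4.20% of the long genes and a BRD2-dBromo-GFP summit in 4.31% and 4.09%, a difference of -0.114 points (exact permutation test, two-sided, p = 0.667). Of 41 interior BRD2-GFP regions, 3 (7.32%) had no BRD2-dBromo-GFP peak, against 4.71% of all BRD2-GFP regions. They were in AT1G27180, B ALPHA, a phosphatase subunit gene, and AT1G66880, each with folds of at most 2.30. In the other direction 1 of 38 (2.63%), in AT5G13250, had no BRD2-GFP peak, against 3.09% of all.

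For H4K5ac the share of genes with an interior summit was 8.06% and 7.26% in WT and 7.38% and 8.17% in brd1/2/13, a difference of 0.114 points (exact permutation test, two-sided, p = 0.667). It was -0.284 points without replicate 2 of either genotype. None of 63 interior WT regions lacked a mutant peak, where 0.921% of all did, and 1 of 68 mutant regions, in AT1G59780, lacked a WT peak, where 2.73% of all did. For H4K8ac the shares were 7.15% and 7.49% in WT and 7.15% and 7.49% in brd1/2/13, a difference of 0.0 points (exact permutation test, two-sided, p = 1.0). Of 57 WT regions 3, in RXW8, AT1G65985 and AT4G33150, had no mutant peak, against 1.94% of all, and of 55 mutant regions 1, in AT1G66880, had no WT peak, against 2.43% of all. The replicate lists of each genotype overlapped in both marks.

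Genes listed by their role were looked up in the same way. Of 133 listed genes 74 were long, and 5 of these had an interior region, against 9.53% of all long genes: DML3, HAF2, CalS7, ABCB19 and HA1. At the start, by contrast, 37 of the 74 had a BRM-GFP region and 69 a WT H4K5ac region, against 50.5% and 86.9% of all long genes. Among 23 long genes for chromatin and DNA methylation, BRM-GFP had a start region in 10, and the strongest was on BRM itself, the gene of the tagged protein, with a mean fold of 15.4 (SD 0.996, n = 2). SYD, a related remodelling ATPase, and PKL, a CHD3 remodeller, had no GFP start region but WT H4K5ac folds of 5.63 and 4.82. MET1, the maintenance DNA methyltransferase gene, had no region of any group. HAF2, a histone acetyltransferase gene, had an interior WT H4K5ac region of 2.26 and 2.37.

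FLC, a repressor of flowering known for regulation from its long first intron, had a BRM-GFP start region of 2.97 (SD 0.299, n = 2) and no interior region. Of 9 genes for RNA polymerase and Mediator 5 had a BRM-GFP start region, led by MED16 (annotated as SFR6) with 5.53, and none had an interior region. Of 6 small RNA genes 3 had a BRM-GFP start region, among them DCL1 with 2.72 and AGO1 with 4.61, and none had an interior region. In the growth and DNA damage list of 8, RAPTOR1 was the single gene with a BRM-GFP start region, at 4.44. BRD1-GFP had a start region in 7 of these 8 genes, BRD2-GFP and BRD2-dBromo-GFP in 6 each and BRD13-GFP in 3. BRM-GFP in brd1/2/13 had none, and WT H4K5ac had one in 8 of 8. Over all long genes, start regions were found in 50.5% for BRM-GFP, 61.4% for BRD1-GFP and 86.9% for WT H4K5ac. Of 12 cell wall and transport genes, HA1, a plasma membrane proton pump gene, had a BRM-GFP start fold of 13.2 and CESA1, a cellulose synthase gene, one of 10.13. Cytoskeleton genes had BRM-GFP start regions in 7 of 11, including the myosin gene XIK with 6.5, and no interior region.

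Sequence content of the summits was described with 4 short motifs on both strands of the same short windows, the summit with 50 bp on each side. GAGAGA was in 7.02% of all windows tiling the interiors and in 12.5% of start-zone windows. It was in 16.1% ± 3.63 (SD over 6 groups) of the interior summit windows of GFP-tagged proteins and in 32.6% at their start-zone summits. For the acetylation groups these shares were 15.9% and 19.8%. CACGTG was in 0.695% of interior windows, 3.45% of GFP interior summits and 0.815% of acetylation interior summits. TGGGCC was in 1.23% of interior windows and 1.5% of GFP interior summits, and AAACCCTA in 0.304% and 2.38%. These GFP shares rest on at most 3 windows per list for CACGTG and at most 2 for TGGGCC or AAACCCTA. BRM-GFP in brd1/2/13 had no CACGTG window in either list. GFP lists also share many sites, so the same windows can count in several of them. The mean GC content was 38.9% at GFP interior summits and 43.8% at acetylation interior summits, against 33.2% in windows wholly in introns and 42.5% in those wholly in exons. A match describes the letters of a window and is not a site of binding.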

How the data were processed

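ChIP-seq peak lists of 20 immunoprecipitated samples were used, 1 list per sample. Per the labels, the authors' processing named Bowtie (version not given in the sources used here), MACS2 2.1.1, deepTools and TAIR10. The read filters, the use of the inputs and the calling thresholds are not given in the sources used here. The deposited lists hold, per peak, a whole-number score (10 times the −log10 q), a fold enrichment over background (a ratio), a −log10 p-value and q-value, and a summit offset. Background coverage was solved from the fold and the p-value.

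Coordinates were read against the RefSeq annotation of TAIR10.1, with summits at peak start plus offset. Peaks of both replicates that overlapped formed a region, and regions were lost where no list of the other group overlapped them. Group means of 2 lists were the units of exact permutation tests, adjusted by Benjamini-Hochberg over 6 tests, and 4 comparisons of 2 against 2 lists could not pass 0.05. Groups share genes and genome, so the p-values describe these groups. Analyses used Python 3.11.15, numpy 2.4.6, pandas 2.3.3, scipy 1.17.1 and matplotlib 3.10.9, and the scripts were tested on simulated data. The long genes, gene lists, motifs and tests were chosen with earlier results of these data known. Named genes were those on the lists, those with the highest interior fold (10 for BRM-GFP, 5 for every other group), the 5 longest, the 5 strongest of those whose BRM-GFP regions were all lost and of those with one retained, the 5 with most regions of BRM-GFP and of WT H4K5ac, and the 5 strongest without a start-zone BRM-GFP peak; other genes were picked after their values were seen. Alternatives were a −log10 q of at least 5, equal numbers of peaks, other limits of gene length and interior, other distances and overlaps, and each replicate left out. Deviations of same-numbered replicates over the 881 genes correlated at -0.0292, 0.0123, 0.0599 and 0.139 in the 4 comparisons, with 2 pairs each, so the numbers were not used to pair samples. Intervals cover counting error only.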

Additional observations from a re-analysis of the deposited data

Results flagged for a closer look

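Acetylation and GFP groups differed in the relative height of their interior peaks. The log2 median fold of interior minus start-zone summits was -0.69 (SD 0.15, 4 groups) for acetylation and 0.09 (SD 0.08, 6 groups) for GFP-tagged proteins, a difference of -0.78 (exact permutation test over 10 groups, two-sided, p = 0.00476, the smallest it can give, adjusted p = 0.00952 over 2 tests). The difference was chosen after seeing the data. It was -0.121 with equal numbers of strongest peaks (exact permutation p = 0.162) and between -0.891 and -0.546 under the other settings.

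The same groups differed in how often interior summits lay in introns. The excess over the interior bases was -24.9 points for acetylation and 1.05 points for GFP-tagged proteins, a difference of -26.0 points (exact permutation test over 10 groups, two-sided, p = 0.00952, adjusted p = 0.00952). It was also chosen after seeing the data. It was -9.61 points with equal numbers of strongest peaks (exact permutation p = 0.138) and between -33.1 and -25.9 points under the other settings.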

How the results depend on the processing

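Of 218 recomputed values 194 kept their direction and their side of the threshold, or moved by less than the replicate spread, and 24 did not. The lower density of long interiors kept both under every alternative run, from -20.5 to -3.71 per Mb. The difference in interior share of summits was -0.198 at a −log10 q of at least 5, -4.2 with equal numbers of peaks and 1.07 with interiors from 2500 bp (exact permutation test, adjusted p = 0.0571), and 1.44 to 1.58 with each replicate left out. With equal numbers of peaks the log2 fold difference was 0.118, the H4K5ac overlap difference -19.5, the H4K5ac genotype difference -0.227 and the start-zone share of lost BRM-GFP regions 19.9%. With genes of at least 8000 bp the intron difference was 1.62, and the genotype differences were 0.523 (BRD2), -1.05 (H4K5ac) and -0.523 (H4K8ac). At a −log10 q of at least 5 the BRD2 difference was 0.17 and the H4K8ac difference -0.284. An overlap of 50% gave lost shares of 87.5% in interiors and 80.5% in start zones, and genes free of other starts gave an excess near other genes of 0.983. With each replicate left out, the H4K5ac overlap difference was -26.9 to -24.5, the H4K5ac genotype difference -0.284 to 0.511 and the lost start-zone share 60.2% to 72.0%. With a replicate block the differences of -2.61, -0.114, 0.114 and 0.0 points were unchanged, with exact permutation p of at least 0.5, the smallest that 2 pairs allow. The alternatives without BRM-GFP in brd1/2/13, with starts of further transcripts and with clean interiors of both classes were chosen after seeing the data. The cause of these changes was not tested. Peak lists hold only what passed a threshold, so an interior without a peak is not shown to lack the protein or mark.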
